A study of Mus musculus with 12 samples.

Results

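Mitochondrial fatty acid oxidation in liver was followed through 10 genes of the carnitine shuttle and the beta-oxidation spiral, Slc22a5, Cpt1a, Slc25a20, Cpt2, Acadvl, Acadl, Acadm, Hadha, Hadhb and Hadh, out of the 11968 genes tested. The genes were taken by name for their place in the pathway, a choice made with earlier results of these data known. All 10 were counted in every liver and passed the low-count filter, with group means from 27.6 to 608.3 CPM, the count scaled to a common library size. Liver mRNA was sequenced from female and male C57BL/6J mice in 4 groups of 3 animals. Female and male controls ate chow for 4 weeks, and the female and male statin groups ate chow with simvastatin at 0.1 g/kg for the same 4 weeks. The labels state the dose per body weight and the study's methods per food weight, and the methods give an age of 8 to 10 weeks at the start. Simvastatin, a cholesterol-lowering drug, inhibits HMG-CoA reductase, and the study asked how sex alters the response to it.

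Long-chain fatty acids cannot cross the inner mitochondrial membrane as CoA esters. The acyl group is moved onto carnitine at the outer membrane, carried inward in exchange for free carnitine, and returned to CoA on the matrix side. Each turn of the spiral then shortens the acyl-CoA through dehydrogenation, hydration, a further dehydrogenation and thiolysis, and in liver the acetyl-CoA released feeds the citric acid cycle and ketone bodies. PPARα, a nuclear receptor for fatty acids, is a known activator of many of these genes in fasting liver.

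Total counts were 46066381 to 60419223 per liver. Levels are given as CPM normalized by the trimmed mean of M-values (TMM), and tests are edgeR quasi-likelihood tests adjusted over all 11968 genes by the Benjamini-Hochberg method, with a threshold of 0.05. Hepatocyte markers were abundant in every liver, whereas the summed level of 4 muscle markers stayed at or below 0.0404 CPM as deposited, without TMM scaling, and the adipocyte markers Adipoq, Plin1 and Lep did not exceed 0.0808 CPM on that scale. Cidec, the other adipocyte marker and a lipid droplet protein, had 1.39, 0.780 and 1.57 CPM in chow females, 4.90, 2.26 and 1.69 CPM in statin females and 0.656 to 3.68 CPM in males. Its female groups did not overlap (log2 fold change 1.24, SE 0.54, adjusted p = 0.448, edgeR), and its part in the results below was not tested. The summed level of 5 hepatocyte markers, most of it Alb, was 91776 to 124918 CPM in chow females and 110906 to 148809 in statin females. Of the 5, 4 were higher and 1 lower on average in statin females (Hnf4a, log2 fold change −0.34), and none was called by edgeR. Between males the same sum was 71922 to 121149 on chow and 75889 to 87369 on statin. The 5 pericentral hepatocyte markers summed to 4648 to 5861 CPM in chow females and 6741 to 8644 in statin females, without overlap, and to 10154 to 11998 and 8498 to 12882 in chow and statin males. Most of each sum was Cyp2e1, with group means of 3365 CPM in chow females and 5534 CPM in statin females. Cyp2e1 was the only 1 of the 5 without overlap between the female diets. All 5 pericentral markers were higher on average in statin than in chow females, and none was called by edgeR. For 2 of them the unadjusted p was under 0.05, against 5.93% of all genes in that direction. Of 5 periportal markers, 2 were higher and 3 lower (median log2 fold change −0.15), and the periportal sums overlapped (1616 to 2628 and 1876 to 2033 CPM). Kupffer cell genes were higher for 6 of 6 (0.11), endothelial genes for 2 of 5, and stellate cell genes lower for 5 of 5 (−0.37). None of these was called by edgeR. The part of all these markers in the results below was not tested. In whole-liver RNA, fewer cells of a type and less RNA per cell cannot be told apart.

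In females, the levels of all 10 genes were higher on average with statin than with chow, and Slc22a5, the carnitine importer, was the only one to pass the adjusted threshold in edgeR's quasi-likelihood test. In males, 9 of the 10 were lower on average with statin, and none passed. The individual livers, shown for each gene in the plot of levels by liver, are described below in the order of the pathway.

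**Figure D1:**
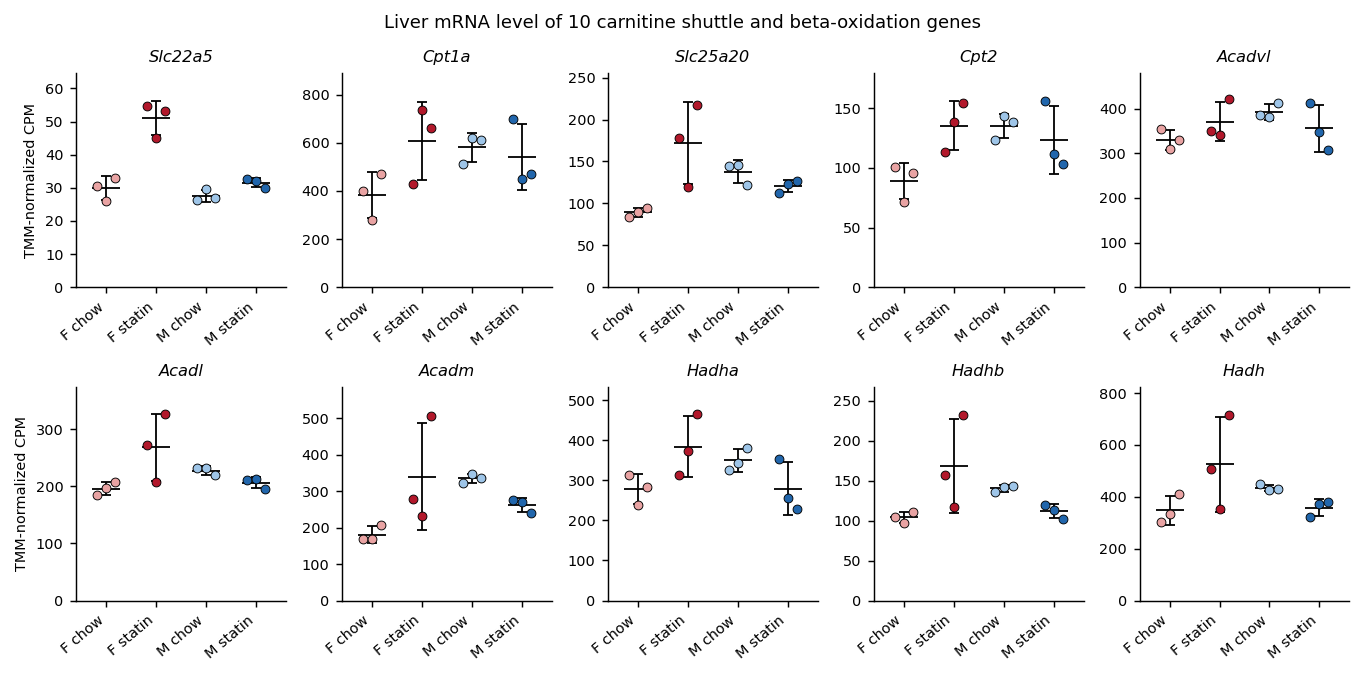
Level of each of the 10 genes in every liver (y axis, TMM-normalized CPM, starting at 0) for female (F) and male (M) mice on chow or statin (x axis). Points are the 3 livers of a group in replicate order, horizontal lines are group means and bars are ± 1 SD. Slc22a5 in statin females (45.1 to 54.6 CPM) sits above all 9 other livers, and statin females spread widely for Acadm, Hadhb and Hadh.

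Slc22a5 encodes OCTN2, the plasma membrane transporter that brings carnitine into the cell. Its level was 30.7, 26.0 and 33.1 CPM in the 3 chow females and 54.6, 45.1 and 53.3 CPM in the 3 statin females. Chow males had 26.3, 29.7 and 26.9 CPM, and statin males 32.7, 32.2 and 29.9 CPM. Every statin female lay above every other liver, and statin males lay just above chow males without overlap. In females, Slc22a5 rose 1.71-fold, a log2 fold change of 0.77 (SE 0.12, adjusted p = 0.0382, edgeR). It was 1 of 12 genes called in this comparison, a share of 0.100% of all genes tested. The difference in males was 0.19 on the log2 scale (SE 0.12, adjusted p = 1.00, edgeR), and 3.64% of all genes were higher in statin males without overlap. The call in females was lost when any of 9 livers was left out, with adjusted p (edgeR) of 0.144 without chow female 1, 0.214 without chow female 2 and 0.141 without statin female 3. The adjusted p was 0.0838, 0.0748 and 0.0823 without chow males 1, 2 and 3, and 0.0593, 0.0877 and 0.0691 without statin males 1, 2 and 3. It was also lost with library size alone (0.0858) or upper-quartile scaling (0.0595) in place of TMM and with females fitted alone (0.342).

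Slc22a5 lies on the minus strand of chromosome 11 at 53864542 to 53891660 (GRCm38), with 10 exons in its principal transcript. Its promoter is shown because it was the only one of the 10 genes called with statin by edgeR's quasi-likelihood test. The 250 bases upstream of the RefSeq start (GRCm38.p6, chr11:53891704-53891953, minus strand, 5′ to 3′) are 73.6% G and C and hold no AGGTCA hexamer, the core of nuclear receptor elements, on either strand. Capitals mark 3 GC boxes (GGGCGG or its complement on the other strand).
Slc22a5: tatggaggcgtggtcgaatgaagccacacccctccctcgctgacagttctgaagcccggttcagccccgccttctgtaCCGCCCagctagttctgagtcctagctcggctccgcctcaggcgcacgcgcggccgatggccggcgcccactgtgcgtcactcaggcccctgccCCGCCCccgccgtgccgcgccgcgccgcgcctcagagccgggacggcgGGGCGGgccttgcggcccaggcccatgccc

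Cpt1a encodes the liver form of carnitine palmitoyltransferase 1, which links long-chain acyl groups to carnitine and is the malonyl-CoA-sensitive control point of the pathway. Its level was 399.9, 280.0 and 469.8 CPM in chow females and 427.0, 734.7 and 663.2 CPM in statin females. Males had 511.8, 619.7 and 611.8 CPM on chow and 700.1, 451.5 and 470.5 CPM on statin. The female groups overlapped, since statin female 1 lay below chow female 3, and statin male 1 lay above all chow males while the other two lay below them. The log2 fold change was 0.67 in females (SE 0.25, adjusted p = 0.353, edgeR) and −0.10 in males (SE 0.25, adjusted p = 1.00, edgeR). The male value was 0.010 without statin male 2, a change of sign.

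Slc25a20 encodes the carnitine-acylcarnitine translocase of the inner membrane. Its level was 83.6, 89.9 and 94.5 CPM in chow females and 178.2, 119.9 and 217.7 CPM in statin females. Males had 144.9, 146.0 and 121.9 CPM on chow and 112.6, 122.6 and 127.1 CPM on statin. All 3 statin females exceeded all 3 chow females, and chow females were the lowest group. The female difference was the largest of the 10 on the log2 scale, 0.94 (SE 0.18, unadjusted p = 0.000231, adjusted p = 0.0951, edgeR), or 1.92-fold, and it did not pass the threshold. It passed without statin female 2 (log2 fold change 1.15, adjusted p = 0.0150, edgeR), and also with DESeq2 (0.000331), edgeR's likelihood-ratio test (0.00106) and no filter on low counts (0.00588). In males the value was −0.19 (SE 0.18, adjusted p = 1.00, edgeR).

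Cpt2 encodes carnitine palmitoyltransferase 2, which returns the acyl group to CoA in the matrix. Its level was 100.4, 71.8 and 95.5 CPM in chow females and 113.7, 138.2 and 154.2 CPM in statin females. Males had 123.4, 143.1 and 138.5 CPM on chow and 155.9, 111.3 and 103.0 CPM on statin. The female groups did not overlap, and statin male 1 was the highest of all 12 livers. The log2 fold change was 0.60 in females (SE 0.19, adjusted p = 0.246, edgeR) and −0.13 in males (SE 0.18, adjusted p = 1.00, edgeR).

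The acyl-CoA dehydrogenases open each turn of the spiral and differ in the chain length they prefer. Acadvl, the very-long-chain enzyme, had 353.6, 308.9 and 329.2 CPM in chow females, 349.0, 342.3 and 422.3 CPM in statin females, 386.1, 380.7 and 413.9 CPM in chow males and 412.6, 348.8 and 307.8 CPM in statin males. It had the smallest difference of the 10 genes in females, and both sexes overlapped between diets. Its log2 fold change was 0.17 in females (SE 0.14, adjusted p = 0.809, edgeR), or 0.080 without statin female 3, and −0.14 in males (SE 0.14, adjusted p = 1.00, edgeR). Acadl, the long-chain enzyme, had 184.4, 196.2 and 207.2 CPM in chow females, 271.6, 207.8 and 325.8 CPM in statin females, 232.7, 231.4 and 218.9 CPM in chow males and 210.2, 213.3 and 195.9 CPM in statin males. Neither sex overlapped between diets, but the lowest statin female exceeded the highest chow female by less than 1 CPM. Acadl differed by 0.45 in females (log2, SE 0.15, adjusted p = 0.288, edgeR) and by −0.14 in males (SE 0.15, adjusted p = 1.00, edgeR).

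Acadm encodes the medium-chain acyl-CoA dehydrogenase. Its level was 167.4, 167.5 and 207.4 CPM in chow females and 277.8, 232.6 and 506.3 CPM in statin females. Males had 323.3, 347.4 and 335.8 CPM on chow and 274.2, 270.7 and 240.0 CPM on statin. Statin livers were all above chow livers in females and all below them in males, and statin female 3 stood at 1.98 times the mean of the other two. The log2 fold change was 0.91 in females (SE 0.24, adjusted p = 0.173, edgeR) and −0.36 in males (SE 0.23, adjusted p = 1.00, edgeR). The female difference passed without statin female 2 (1.11, adjusted p = 0.0405, edgeR), with DESeq2 (0.0140), with edgeR's likelihood-ratio test (0.0262) and with no filter on low counts (0.0317). It was 0.51 without statin female 3 (adjusted p = 0.349, edgeR).

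Hadha and Hadhb encode the alpha and beta subunits of the mitochondrial trifunctional protein, which carries out the remaining steps for long chains. Hadha had 313.4, 237.9 and 284.5 CPM in chow females, 313.9, 373.1 and 464.5 CPM in statin females, 325.7, 343.9 and 381.5 CPM in chow males and 353.0, 256.5 and 227.7 CPM in statin males. Hadhb had 104.1, 97.6 and 111.2 CPM in chow females, 157.8, 116.7 and 232.6 CPM in statin females, 135.7, 142.2 and 143.4 CPM in chow males and 119.0, 113.8 and 102.1 CPM in statin males. The female groups did not overlap for either subunit, although chow female 1 and statin female 1 were nearly level for Hadha, and the male groups overlapped for Hadha alone. In females, the log2 fold change was 0.46 for Hadha (SE 0.19, adjusted p = 0.415, edgeR) and 0.70 for Hadhb (SE 0.20, adjusted p = 0.217, edgeR). Hadhb passed without statin female 2 (0.90, adjusted p = 0.0304, edgeR) and with DESeq2 (0.0416), and its value was 0.41 without statin female 3 (adjusted p = 0.542, edgeR). Both subunits had a value of −0.33 in males (SE 0.19 and 0.20, adjusted p = 1.00 for each, edgeR). Per kilobase of principal transcript, the ratio of Hadha to Hadhb ranged from 1.01 in statin female 1 to 1.63 in statin female 2, so the widest gap in the subunit ratio lay between livers of 1 group. The principal transcripts differ in length (4017 and 2048 bases). These livers also had opposite slopes of level with transcript length (−0.137 and 0.110, given below). Dividing by a fixed length does not remove that trend, and its part in the ratio was not tested.

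The subunit genes lie head to head on chromosome 5, Hadha on the minus strand at 30118304 to 30155162 and Hadhb on the plus strand at 30155248 to 30184593 (GRCm38). Their shared interval is shown because the genes start on either side of it. The 85 bases between the GENCODE gene starts (RefSeq sequence, GRCm38.p6, chr5:30155163-30155247, plus strand, 5′ to 3′) are 69.4% G and C, and capitals mark 2 GC boxes on the Hadhb strand. Between the RefSeq starts lie 272 bases.
Hadhb: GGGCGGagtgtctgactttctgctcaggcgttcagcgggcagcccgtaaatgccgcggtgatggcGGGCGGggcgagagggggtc

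Hadh encodes the 3-hydroxyacyl-CoA dehydrogenase of medium and short chains. Its level was 302.1, 333.3 and 409.1 CPM in chow females and 506.9, 353.2 and 715.8 CPM in statin females. Males had 448.6, 428.1 and 428.6 CPM on chow and 322.8, 371.6 and 381.2 CPM on statin. The female groups overlapped through statin female 2, while all statin males lay below all chow males. The log2 fold change was 0.59 in females (SE 0.22, adjusted p = 0.340, edgeR) and −0.28 in males (SE 0.21, adjusted p = 1.00, edgeR). The female value was 0.32 without statin female 3 (adjusted p = 0.849, edgeR).

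Set beside the whole table, 9 of the 10 genes had an unadjusted p under 0.05 and were higher in statin females, against 5.93% of all genes, with Acadvl the exception. In 7 of the 10, every statin female exceeded every chow female, against 6.03% of all genes. The median log2 fold change was 0.63 for the 10 genes and 0.013 for all genes. It was 0.46 without statin female 3 and between 0.53 and 0.74 without each of the other female livers. The same 10 genes share livers, so they are not replicates of the statin effect.

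In males, the 10 genes had a median log2 fold change of −0.17 against 0.0036 for all genes. It was −0.30 without statin male 1 and between −0.22 and −0.15 without each other male liver. The value of Hadha was −0.53 without statin male 1 and −0.20 without statin male 3, that of Acadvl −0.26 and −0.048, and that of Cpt2 −0.33 and −0.014. In 4 of the 10 (Acadl, Acadm, Hadhb and Hadh) every statin male lay below every chow male, against 4.30% of all genes. No gene of the table was called by edgeR's quasi-likelihood test, a share of 0%, and 1.96% of all genes (234) had an unadjusted p under 0.05. None of the 10 was among these 234. DESeq2 called 4 genes and edgeR's likelihood-ratio test 3, and neither called any of the 10.

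**Figure D2:**
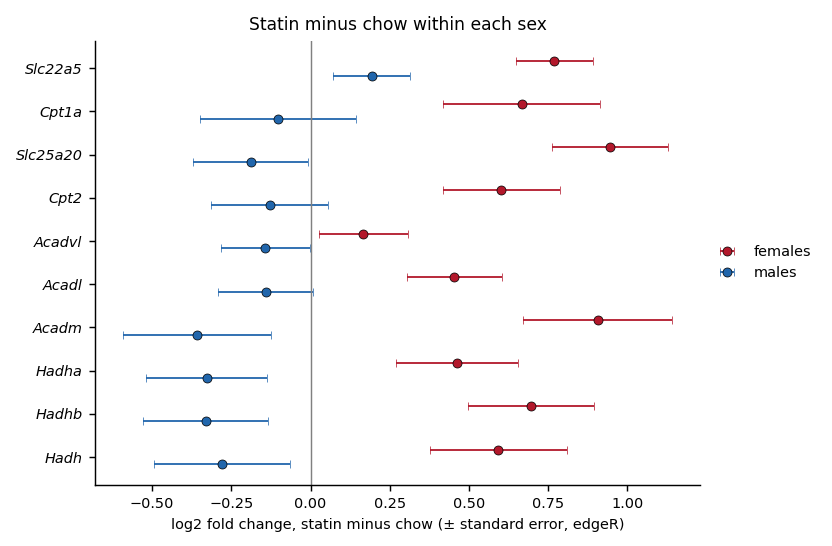
Log2 fold change of statin minus chow (x axis) for each of the 10 genes (y axis) in females and males, with bars of ± 1 SE from edgeR and a grey line at 0. All female points lie above 0, from 0.17 for Acadvl to 0.94 for Slc25a20, and all male points but that of Slc22a5 lie below 0.

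The response was compared between the sexes with an interaction term, the female log2 fold change minus the male one. It was above 0 for all 10 genes, with a median of 0.78 against 0.0072 for all genes, and 9 of the 10 had an unadjusted p under 0.05, against 4.62% of all genes (553) with a positive interaction. The largest were 1.27 for Acadm (SE 0.33, adjusted p = 0.305, edgeR), 1.13 for Slc25a20 (SE 0.26, adjusted p = 0.265, edgeR) and 1.03 for Hadhb (SE 0.28, adjusted p = 0.312, edgeR). Slc22a5 had an interaction of 0.58 (SE 0.17, adjusted p = 0.360, edgeR), and Acadvl the smallest, 0.31 (SE 0.20, adjusted p = 0.819, edgeR). None of the 10 passed the adjusted threshold, and 0% of all genes did. The count depended on the tool, since DESeq2 called 130 genes, 3 of the 10 among them (Slc25a20, Acadm and Hadhb), and edgeR's likelihood-ratio test called 78, with Slc25a20 among them. Without statin female 2, the quasi-likelihood test called Slc25a20 (1.33, adjusted p = 0.0397). In 3 of the 10, Acadl, Acadm and Hadhb, statin livers were all higher in females and all lower in males, against 0.627% of all genes (75).

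On chow, 9 of the 10 genes were lower on average in females than in males, and for each of these 9 no female reached the lowest male, against 19.1% of all genes. The exception was Slc22a5 (log2 difference 0.12, SE 0.12, adjusted p = 0.620, edgeR), with 0.20 without chow female 2 and 0.033 without chow female 3. The median female minus male difference was −0.38 for the 10 genes and −0.0094 for all genes. Unadjusted p was under 0.05 in 4 of the 10, against 11.6% of all genes in that direction. Acadm (−0.89, SE 0.24, adjusted p = 0.0319, edgeR) and Slc25a20 (−0.62, SE 0.18, adjusted p = 0.0490, edgeR) passed the adjusted threshold, as did 10.4% of all genes in either direction. Acadm was 0.539 times and Slc25a20 0.649 times the male level. Markers of other liver cells were higher on average in chow females than in chow males for 6 of 6 Kupffer cell genes (median log2 difference 0.77, 2 called by edgeR), 5 of 5 stellate cell genes (0.67, 2 called) and 5 of 5 endothelial genes (0.53, 1 called). The summed level of the Kupffer cell genes was 432.9 to 528.6 CPM in chow females and 226.6 to 346.4 in chow males, that of the stellate cell genes 300.6 to 350.2 and 190.9 to 203.2, and that of the endothelial genes 225.2 to 245.3 and 147.0 to 206.9. The pericentral markers, with the sums given above, were lower on average in chow females for 4 of 5 (median −0.39, 1 called by edgeR). None of these 4 sums overlapped between the sexes, but most of the pericentral sum was Cyp2e1, and Glul was higher on average in chow females (0.058). Of 5 hepatocyte markers, 3 were higher and 2 lower on average in chow females. Both lower ones were called, Apoa1 (−0.81, adjusted p = 0.0136, edgeR) and Serpina1c (−0.99, adjusted p = 0.000344, edgeR). The part of these markers in the differences on chow was not tested. These chow females are also the controls of the female statin comparison, so both sets of differences share 3 livers.

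Both chow calls were sensitive to single livers. The adjusted p of Acadm (edgeR) was 0.0950 and 0.101 without chow females 1 and 2, and 0.0793, 0.0851 and 0.0825 without chow males 1, 2 and 3. That of Slc25a20 (edgeR) was 0.133, 0.120 and 0.0875 without chow females 1, 2 and 3 and 0.147, 0.134 and 0.0725 without chow males 1, 2 and 3. It was 0.0730 and 0.0619 without statin males 2 and 3, 0.0799 with upper-quartile scaling and 0.0604 with a stricter filter. Cpt2 (−0.60, SE 0.19, adjusted p = 0.0607, edgeR) lay just outside and passed without statin female 1 (0.0408) or statin male 1 (0.0283). Cpt2 also passed with DESeq2 (0.0206), edgeR's likelihood-ratio test (0.0287), library size alone (0.0288), no filter (0.0407) and the chow livers fitted alone (0.0184). Hadhb passed without statin female 3 (0.0490) and with the chow livers fitted alone (0.0181).

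The promoters of the 2 genes called on chow are shown for comparison with Slc22a5 (RefSeq), each upstream of its RefSeq start and 5′ to 3′. The Acadm stretch (GRCm38.p6, chr3:153944644-153944893, minus strand) is 64.0% G and C. The Slc25a20 stretch (chr9:108661886-108662087, plus strand) is 54.0% G and C and is shorter, since it stops at the GENCODE gene start, short of the RefSeq start. Capitals mark an AGGTCA hexamer read from the other strand in Acadm and 2 GC boxes in Slc25a20.
Acadm: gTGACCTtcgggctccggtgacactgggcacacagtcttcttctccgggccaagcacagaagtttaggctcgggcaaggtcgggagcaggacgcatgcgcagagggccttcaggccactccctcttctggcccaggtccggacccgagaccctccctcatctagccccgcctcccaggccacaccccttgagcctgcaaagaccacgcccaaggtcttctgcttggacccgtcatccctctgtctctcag
Slc25a20: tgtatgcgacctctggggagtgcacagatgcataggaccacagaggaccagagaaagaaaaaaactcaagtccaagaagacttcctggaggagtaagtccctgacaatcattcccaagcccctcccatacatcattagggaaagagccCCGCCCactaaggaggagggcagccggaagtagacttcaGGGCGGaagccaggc

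Over the window from 250 bases before to 50 bases after the RefSeq start, searched on both strands, AGGTCA was present in 3 of the 10 genes (Cpt1a, Acadm and Acadvl) and in 16.2% of 32544 mouse windows. The direct repeat AGGTCANAGGTCA, the spacing PPARα binds with its partner RXR, was in none of the 10 and in 0.0399% of all windows, and every such repeat also holds the single hexamer. The looser AGGNCANAGGNCA was likewise in none and in 0.384%. GGGCGG was present in 8 of the 10 genes and in 35.9% of windows, CCAAT in 2 (Cpt1a and Hadh) and in 37.4%, and TATAAA in none and in 13.6%. The windows of the 10 genes held 50.7% to 72.7% G and C, against a median of 53.0%. A missing match says only that these letters are not in this window.

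On statin, the female minus male difference was above 0 for all 10 genes, with a median of 0.42 against −0.012 for all genes. Without statin female 3 the median was 0.24, and 8 of the 10 were above 0. Unadjusted p was under 0.05 and the female level higher in 6 of the 10, against 12.2% of all genes. Slc22a5 was 1.62-fold higher in females (log2 0.69, SE 0.12, adjusted p = 0.00523, edgeR), the only one of the 10 to pass, against 6.28% of all genes in either direction. The adjusted p was 0.0551 with the statin livers fitted alone. DESeq2 called Hadhb as well (0.58, adjusted p = 0.0455). Slc22a5 was also the only one without overlap, against 11.1% of all genes. After Slc22a5 came Hadhb (0.60, SE 0.20, adjusted p = 0.105, edgeR), Hadh (0.55, SE 0.22, adjusted p = 0.171, edgeR) and Slc25a20 (0.51, SE 0.18, adjusted p = 0.134, edgeR). Without statin female 2, those 3 and Acadl passed, with adjusted p (edgeR) of 0.0129, 0.0351, 0.0150 and 0.0383. Without statin female 3, the differences were 0.30 for Hadhb, 0.26 for Hadh, 0.30 for Slc25a20 and 0.22 for Acadl, with adjusted p (edgeR) of 0.287, 0.513, 0.387 and 0.457. Cpt1a, Acadm and Acadvl changed sign when 1 liver was left out, to −0.0029 for Cpt1a without statin female 2, −0.034 for Acadm without statin female 3, and −0.041 and −0.037 for Acadvl without statin female 3 and statin male 3.

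On statin, the Kupffer cell genes were higher on average in females for 6 of 6 (median log2 difference 1.05, 4 called by edgeR), and the stellate cell and endothelial genes for 5 of 5 each (0.54 and 0.46, none called by edgeR, with an unadjusted p under 0.05 for 2 and 3). Of all genes, 6.28% were called in either direction, and 12.2% were higher in females with an unadjusted p under 0.05 (edgeR). The Kupffer cell sum was 377.6 to 655.1 CPM in statin females and 226.1 to 279.8 in statin males, without overlap, whereas the stellate cell and endothelial sums overlapped. Their part in the differences on statin was not tested.

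**Figure D3:**
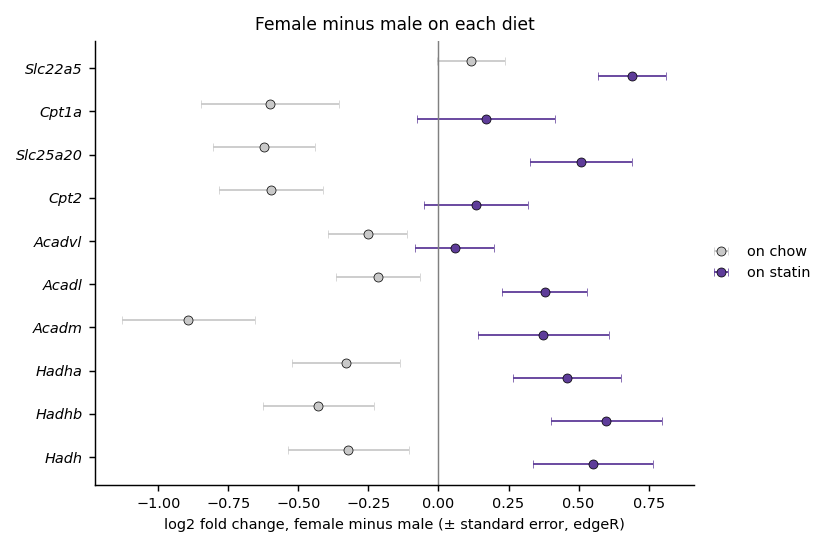
Log2 difference of female minus male level (x axis) for each of the 10 genes (y axis) on chow and on statin, with bars of ± 1 SE from edgeR and a grey line at 0. On chow all points but that of Slc22a5 lie below 0, down to −0.89 for Acadm, and on statin all lie above 0, up to 0.69 for Slc22a5.

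Livers of a group differed in how high the pathway stood. Statin female 3 was the highest of all 12 livers for 7 of the 10 genes and the highest statin female for 8, the exceptions being Cpt1a and Slc22a5. Statin female 2 was the lowest statin female for 7, yet it had the highest Cpt1a of all 12 livers. The median SD over the 10 genes was 24.2% of the mean in statin females, 12.4% in chow females, 5.57% in chow males and 8.25% in statin males. Chow females 1 and 2 held the lowest level for 4 genes each. The trend of level with transcript length also differed within the statin females, with a slope of −0.137 log2 units per doubling of length in statin female 1 and 0.110 in statin female 2, and in statin males 1 and 3 (0.140 and −0.0912). With this trend removed, Slc22a5 was still called in females (adjusted p = 0.0197, edgeR).

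**Figure D4:**
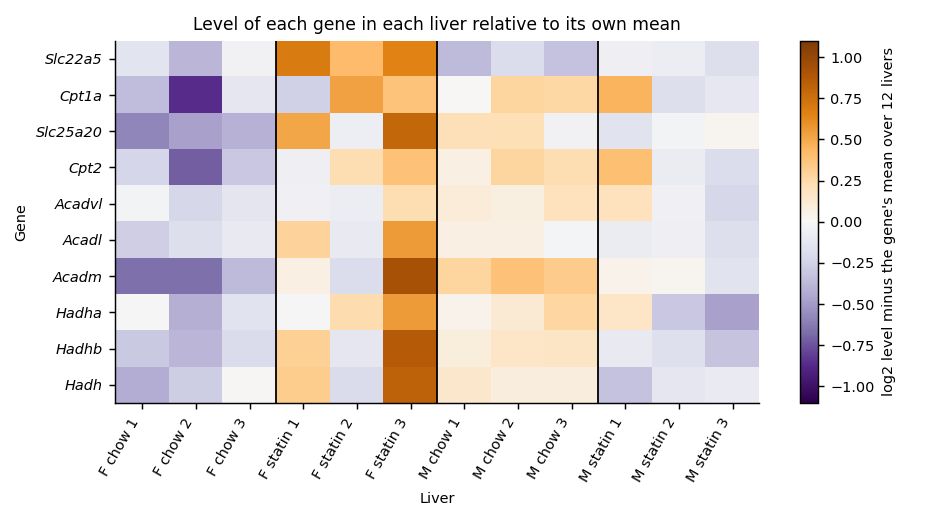
Log2 level of each of the 10 genes (rows) in each of the 12 livers (columns, by group), minus the gene's mean over all livers, from purple (lower) to orange (higher). The 3 chow females are mostly purple, and statin female 3 is the darkest orange column, with the highest level of 7 genes.

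Profiles across the 12 livers were compared by the root mean square (RMS) difference of log2 levels, each gene centred on its own mean. The closest pair was Hadhb and Hadh (0.130), followed by Acadl and Hadh (0.136) and by Cpt1a and Cpt2 (0.137), whereas Slc22a5 and Acadm were farthest apart (0.453). Among all genes tested, the 5 with profiles most like Cpt1a were Gpr155 (0.115), Atp7b (0.125), Pdxk (0.136), Cpt2 (0.137) and Acad11 (0.146), against 0.384 for Cpt1a around its own mean. Hadha ranked 292 in likeness to Cpt1a and Slc22a5 ranked 5445. These points share livers and depth, and the length trend given above was not removed from them, so the values are descriptions. The part of that trend in the likeness was not tested.

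Levels between genes were compared per kilobase of principal transcript. In chow females the order was Hadh at 194.6 ± 30.7 CPM per kilobase (SD, n = 3), Acadvl at 152 ± 10.3, Acadl at 102 ± 5.96, Cpt1a at 88.8 ± 22.2, Acadm at 88.3 ± 11.3, Hadha at 69.4 ± 9.48, Hadhb at 50.9 ± 3.31, Slc25a20 at 50.1 ± 3.08, Cpt2 at 37.6 ± 6.45 and Slc22a5 at 9.77 ± 1.17. Acadl and Cpt1a, Cpt1a and Acadm, and Hadhb and Slc25a20 were neighbours that differed by less than the larger of their SDs. In statin females Hadh (294 ± 102) again stood highest and Slc22a5 (16.7 ± 1.68) lowest, and Acadvl (171 ± 20.5) and Acadm (166 ± 71.7) came next after Hadh. Acadm differed from Cpt1a (141 ± 37.3) and Acadl (140 ± 30.8) by less than its own SD, with its highest level in statin female 3. Acadm stood at 164 ± 5.89 in chow males and 128 ± 9.20 in statin males.

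Of the other genes of the carnitine system, 4 of 7 could be tested, since Cpt1b, Cpt1c and Slc22a21 lay below the filter. Crat, the acetyltransferase that buffers acetyl-CoA with carnitine, had 50.5, 34.0 and 32.3 CPM in chow females, 75.9, 98.5 and 115.3 CPM in statin females, 57.1, 60.3 and 60.3 CPM in chow males and 55.9, 24.6 and 38.4 CPM in statin males. Diets did not overlap in either sex, upward in females and downward in males. Its log2 fold change was 1.31 in females (SE 0.27, adjusted p = 0.0968, edgeR) and −0.58 in males (SE 0.26, adjusted p = 1.00, edgeR), with an interaction of 1.89 (SE 0.38, adjusted p = 0.202, edgeR). On statin, Crat was higher in females than in males (1.28, SE 0.27, adjusted p = 0.0140, edgeR). Crot, the peroxisomal octanoyltransferase, differed by 1.25 with statin in females (SE 0.30, adjusted p = 0.129, edgeR) and was lower in females than in males on chow (−1.21, SE 0.30, adjusted p = 0.0235, edgeR). Slc25a29, another mitochondrial carrier, differed by −0.31 with statin in females (adjusted p = 0.696, edgeR). Aldh9a1 and Bbox1, the 2 tested genes of carnitine synthesis, differed by 0.12 and 0.13 in females, with adjusted p of 0.917 and 0.938 (edgeR).

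The 10 other mitochondrial beta-oxidation enzymes were all higher on average in statin females (median log2 fold change 0.33), and 9 of the 10 were lower in statin males (median −0.15), with none called by edgeR in either sex. Unadjusted p was under 0.05 for 4 in females and 1 in males, against 5.93% (higher) and 1.96% (either direction) of all genes. Eci2, an enoyl-CoA isomerase for unsaturated chains, had 128.4, 148.8 and 128.1 CPM in chow females and 238.5, 176.7 and 305.7 CPM in statin females, without overlap. It differed by 0.83 (SE 0.17, adjusted p = 0.0968, edgeR), whereas its difference in males was 0.0011. Decr1, the 2,4-dienoyl-CoA reductase, differed by 0.61 in females (adjusted p = 0.268, edgeR) and Eci1, another isomerase, by 0.44 (adjusted p = 0.341, edgeR). On chow, 9 of the 10 were lower on average in females than in males, 6 with an unadjusted p under 0.05 (11.6% of all genes), and 3 were called (10.4% of all genes in either direction), Eci2 (−0.70, adjusted p = 0.0224), Eci1 (−0.57, adjusted p = 0.0413) and Acaa2, a thiolase of the last step (−0.52, adjusted p = 0.0472, edgeR). On statin, Acad9 was higher in females (0.45, adjusted p = 0.0482, edgeR). Of the 3 genes that pass electrons from the dehydrogenases to the respiratory chain, Etfa, Etfb and Etfdh, the values in females were 0.12, 0.21 and 0.38, and none was called in any comparison (unadjusted p under 0.05 for Etfdh in the interaction and on chow).

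Genes upstream and downstream of the pathway differed in both directions. Among 4 tested long-chain acyl-CoA synthetases, which make the acyl-CoA that Cpt1a uses, Acsl1 differed by 0.61 with statin in females (adjusted p = 0.310, edgeR) and Acsl5 by −0.63 (adjusted p = 0.412, edgeR). On chow, Acsl1 was lower in females than in males (−0.86, adjusted p = 0.0226), while Acsl3 (0.72, adjusted p = 0.0333), Acsl4 (0.58, adjusted p = 0.0333) and Acsl5 (1.37, adjusted p = 0.00644, edgeR) were higher. Of 17 citric acid cycle enzymes, 8 were higher and 9 lower on average with statin in females, with a median of −0.024 and none called by edgeR (unadjusted p under 0.05 for 2, Cs at −0.56 and Mdh2 at −0.29). Mdh2, malate dehydrogenase, was higher in females than in males on chow (0.43, adjusted p = 0.0234, edgeR), and Fh1, fumarase, had an interaction of −0.61 (adjusted p = 0.590, edgeR).

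Of 13 regulators of fatty acid oxidation, 7 were higher and 6 lower on average in statin females, and none was called with statin by edgeR in either sex. In females the unadjusted p (edgeR) was under 0.05 for 1 higher gene, against 5.93% of all genes, and for 3 lower ones. In males it was under 0.05 for 1, against 1.96% of all genes in either direction. Lpin1, a phosphatidate phosphatase and coactivator of PPARα, had 761.7, 402.1 and 316.6 CPM in chow females, 179.8, 242.3 and 60.4 CPM in statin females, 59.2, 49.8 and 124.6 CPM in chow males and 155.8, 327.8 and 288.3 CPM in statin males. Its livers did not overlap between diets in either sex, with the order opposite to that of Acadm. Its log2 fold change was −1.62 in females (SE 0.52, adjusted p = 0.264, edgeR) and 1.72 in males (SE 0.52, adjusted p = 1.00, edgeR), with an interaction of −3.34 (SE 0.73, adjusted p = 0.259, edgeR). On chow, Lpin1 was higher in females than in males (2.66, SE 0.54, adjusted p = 0.00813, edgeR). Acacb, which makes the malonyl-CoA that inhibits Cpt1a, had 833.0, 513.1 and 570.8 CPM in chow females, 289.4, 554.2 and 95.4 CPM in statin females, and 127.3 to 210.4 CPM across the 6 males. Chow females lay above all males, and statin female 3 lay below every male. Acacb was higher in females than in males on chow (2.20, SE 0.45, adjusted p = 0.00938, edgeR) and differed by −1.03 with statin in females (SE 0.44, adjusted p = 0.432, edgeR). Pdk4, a kinase that holds pyruvate dehydrogenase inactive, was higher in females on both chow (1.66, adjusted p = 0.00799, edgeR) and statin (2.58, adjusted p = 0.000674, edgeR). Ppara itself differed by 0.42 with statin in females (adjusted p = 0.660, edgeR), and Mlycd, which breaks down malonyl-CoA, by 0.36 (adjusted p = 0.385, edgeR).

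**Figure D5:**
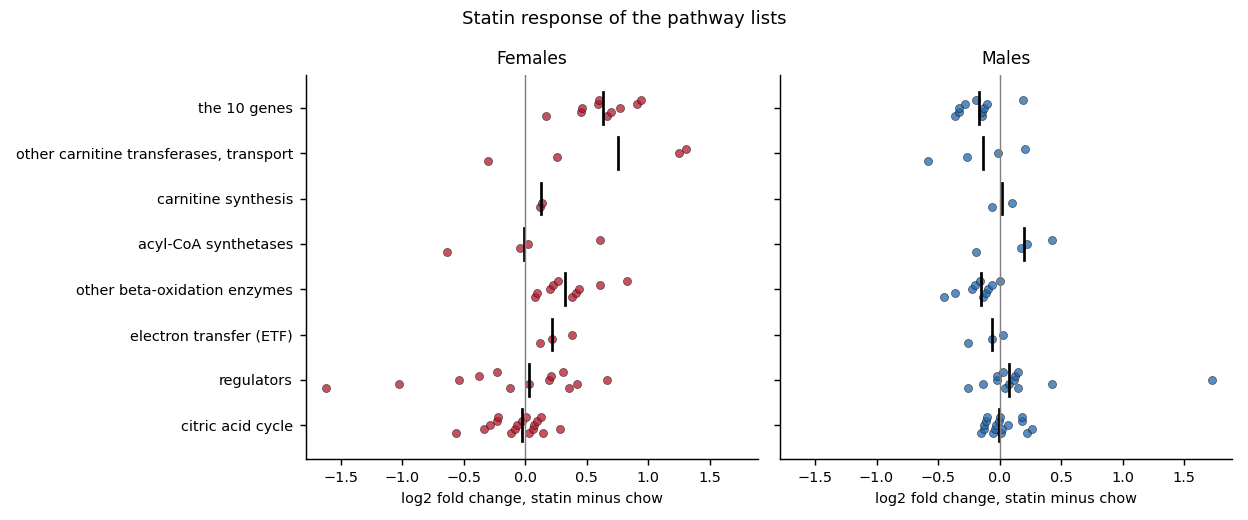
Log2 fold change of statin minus chow (x axis) for every tested gene of 8 gene lists (y axis), in females on the left and males on the right, with 1 point per gene and a black line at each list's median. In females the 10 genes (median 0.63) and the other beta-oxidation enzymes (0.33) lie above 0 throughout, while the citric acid cycle enzymes lie on both sides of 0 (−0.024).

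For 2 of the 10 genes, reads from a neighbour may enter the count. Exons of Acadvl overlap Dvl2 and those of Hadha overlap Garem2, each on the other strand, and the libraries were strand-specific while the strand setting of the counting is not given in the sources used here. The pseudogene Gm15793 overlaps the body of Acadl on the same strand and shares no exon with it.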

How the data were processed

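Liver poly(A) RNA was sequenced by the authors with strand-specific libraries. The submitters' processing notes name STAR 2.4.1a, HTSeq, edgeR 3.28.1 and GRCm38. The deposited CPM table was computed by the authors over all genes, and the second deposited table, named for TMM normalization, holds raw counts: reads recovered from the CPM values were whole for 100% of values (tolerance 0.05), and 0 counts differed from them. It lists 11968 genes, the set recovered here by requiring over 1 CPM in 6 or more livers. The 12 livers were grouped by their labels. The counts were fitted with edgeR 4.0.16 (TMM, quasi-likelihood, 4 groups in 1 fit, limma 3.58.1, R 4.3.3), with Benjamini-Hochberg adjustment over all genes. Common dispersion was 0.0380. Separate cages or litters are not stated, so p-values measure the spread between these livers. The depth was 46066381 to 60419223 counts per liver. The study's methods state a lower average read depth per sample than these totals, and the difference was not resolved. Promoters were taken from RefSeq and matched by symbol (10 of 10). The 10 genes and the gene lists were chosen with earlier results of these data known, so no list was tested. Named were the 10 genes and, from each other pathway list (not the cell type markers), those past the adjusted threshold in any comparison and up to 3 with the smallest p in females or the interaction, plus the 5 most like Cpt1a. Ppara is named beside them for context. Alternatives covered other tests (DESeq2 1.42.0, limma on log2 CPM with pseudocounts of 1 and 0.1), normalizations, filters, a replicate block and each liver left out.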

Additional observations from a re-analysis of the deposited data

Results flagged for a closer look

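For 3 of the 10 genes, all statin livers lay above all chow livers in females and below them in males. Crat and Acaa2, from the other pathway lists, had the same arrangement. The female minus male difference in log2 fold change was 1.27 for Acadm, 0.59 for Acadl and 1.03 for Hadhb. The interaction did not pass the adjusted threshold for any of the 3 (adjusted p = 0.305, 0.472 and 0.312, edgeR), and 0.627% of all genes showed the same arrangement of livers.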

How the results depend on the processing

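The 50 log2 fold changes of the 10 genes (5 comparisons each) were recomputed under 25 alternatives, giving 1240 values, of which 1173 kept their direction and their side of the threshold, 30 lost a call, 31 gained one and 6 changed sign. The cause was not tested. DESeq2 called 270 genes with statin in females (4 of the 10), 4 in males, 130 in the interaction (3 of the 10), 1946 between the sexes on chow (3 of the 10) and 1284 on statin (2 of the 10). edgeR's likelihood-ratio test called 179 in females (3 of the 10), 3 in males, 78 in the interaction (1 of the 10) and 1132 between the sexes on statin. Without a filter, 148 genes were called in females (3 of the 10) and 103 in the interaction (2 of the 10), and with a stricter filter 500 between the sexes on statin and 1 of the 10 on chow. Library size alone and upper-quartile scaling left 0 of the 10 called in females, upper-quartile scaling left 1 on chow, and library size alone gave Acadvl −0.034 between the sexes on statin. Fitting each sex or diet alone gave 0 genes in females (0 of the 10), 2151 between the sexes on chow (4 of the 10) and 292 on statin (0 of the 10), with fewer livers in each fit. Leaving out 1 liver gave 0 to 75 genes in females (0 to 4 of the 10), 0 to 14 in the interaction (0 to 1), 635 to 1586 on chow (0 to 3) and 378 to 743 on statin (1 to 5). Over these fits Cpt1a ranged from −0.33 to 0.010 in males, and between the sexes on statin Cpt1a from −0.0029 to 0.40, Acadm from −0.034 to 0.57 and Acadvl from −0.041 to 0.18. Replicate numbers name different mice. Deviations of same-numbered livers had a mean correlation of −0.0917 (18 pairs, 5 over 0.1), and 2 of 12 livers correlated best with their own number, so the numbers were not taken as pairs. A replicate block called 5 genes in females and 0 of the 10 (Slc22a5, adjusted p = 0.155, edgeR), and 1 of the 10 on chow, where it ended the call of Slc25a20 (adjusted p = 0.0807, edgeR). Depth was not varied.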
